A study of Mus musculus with 14 samples.

Results

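The genes described here are 10 genes of the Nrf2 antioxidant response. They are *Nfe2l2*, which encodes Nrf2, and *Slc7a11*, *Gclm*, *Srxn1*, *Prdx1*, *Txnrd1*, *Hmox1*, *Ptgr1*, *Aox1* and *Nqo1*. They are 10 of the 28316 genes counted in retinal nuclei and of the 26528 genes counted in brain nuclei. The 10 members were chosen by measured values of these same libraries. Those values were their levels in control and knockout libraries by cell type and their joint detection in single immune nuclei. Both are therefore given as descriptions, without a test. Nrf2 is a transcription factor that the adaptor protein Keap1 marks for degradation in unstressed cells. When oxidants or electrophiles modify Keap1, Nrf2 accumulates, pairs with a small Maf protein and binds antioxidant response elements near genes that supply glutathione and thioredoxin, break down heme and clear reactive compounds. In the nervous system the response is best known from glia, vascular cells and phagocytes.

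The study asked how loss of TGF-beta signaling in endothelial cells (ECs) alters the retina and the brain. Nuclei of whole retinas and of vascular fragments enriched from the brain were profiled by single-nucleus RNAseq with PIPseq, in which captured transcripts carry a unique molecular identifier (UMI). Knockout (CKO) mice were *Cdh5CreER;Tgfbr1 CKO/-* and received 4-hydroxytamoxifen on postnatal days 3 to 5. Their age was postnatal day 14 by the study's methods, while the deposited series record says young adult. Controls were phenotypically wild type, which in this study are typically *Cdh5CreER;Tgfbr1 CKO/+*. The retina was represented by 1 control and 11 CKO libraries, and the brain by 1 control and 1 CKO library. Whether the control mice of these libraries received 4-hydroxytamoxifen is not stated. The Cre driver acts in ECs, so most nuclei described here were not targets of the deletion, and ECs were not among the 11 labeled retinal cell types. Each brain library pooled 2 brains. The number of mice per retina library is not given.

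In the retina, the control library contained 11513 nuclei, the CKO libraries 104 to 18862. They held 30989702 UMIs and 90449 to 55803724 UMIs, respectively. Capture used the PIPseq 4PLUS kit for the control and for CKO replicates 1 to 7, and the PIPseq 5 kit for the others. In the authors' metadata, batch 1 held the control and CKO replicates 1 to 3, batch 2 held replicates 4 and 5, and batch 3 held replicates 6 to 11. CKO replicate 4 stood apart, with 104 nuclei, of which 65 were labeled immune and 0 were rods. The control brain library held 16649 nuclei and 49798325 UMIs, and the CKO brain library 14675 nuclei and 31033373 UMIs. Of 77666 cell barcodes in the retina libraries, 10 occurred in more than 1 library, and of 31322 in the brain libraries, 2 did.

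*Tgfbr1*, the deleted gene, lies at chr4:47353134-47414931 of GRCm39. It was at 89.0 CPM (UMIs of the gene as a share of all UMIs of the nuclei summed, scaled to a fixed total) over all nuclei of the control retina library. Its lowest, median and highest CKO values were 71.4, 79.4 and 365 CPM, the last in CKO replicate 4. These counts are taken near the 3′ end of transcripts and from nuclei that were mostly not ECs, so they do not test the deletion. The immune label was checked against *Ptprc*, which encodes CD45. A UMI of *Ptprc* was found in 62.1% of the 29 control nuclei and in 70.2% of the 691 CKO nuclei with this label.

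In nuclei labeled immune cells, *Nfe2l2*, *Slc7a11*, *Txnrd1* and *Hmox1* were lower in the control library than in each of the 11 CKO libraries. Levels are CPM of these nuclei in each library. Values in parentheses after a level, ratio or share are 95% intervals, except in the order of cell types. They cover counting error only and come from exact Poisson limits, conditional binomial limits or Clopper-Pearson limits, in that order. The control value rests on 29 nuclei, so most members had few UMIs in it. The label covers several kinds of immune cell, whose mix was not matched between the genotypes. Of the CKO nuclei, 229 of 691 came from replicate 5.

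*Nfe2l2* itself was at 34.9 CPM in the control, from 4 UMIs (9.52 to 89.5). Its lowest CKO value was 50.3 CPM in replicate 8, the median was 85.7 and the highest was 139 in replicate 4. The control lay below the CKO range, and its interval covered the CKO median, which was 2.45 times the control value. Since the mix of immune cells was not matched, this is not a ratio within any kind of immune cell.

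*Slc7a11*, at chr3:49846975-50398070 of GRCm39, encodes the transporter subunit that imports cystine for glutathione synthesis. It had 1 UMI in the control, or 8.74 CPM (0.221 to 48.7). In the CKO libraries its lowest value was 15.6 CPM in replicate 7, the median was 99.9 and the highest was 680 in replicate 2. The highest value came from a single nucleus, which held 62 of the 64 *Slc7a11* UMIs of replicate 2 among its 1816 UMIs. Without that nucleus, replicate 2 was at 21.7 CPM. *Gclm*, at chr3:122039126-122065061, encodes the modifier subunit of glutamate-cysteine ligase, the enzyme that starts glutathione synthesis. It was at 26.2 CPM in the control, from 3 UMIs, and at 23.2, 168 and 380 CPM as the lowest, median and highest CKO values. CKO replicate 4 lay below the control for *Gclm*, and the other 10 CKO libraries lay above it.

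The genes of thioredoxin and peroxide handling followed, with *Txnrd1* apart between genotypes and *Prdx1* and *Srxn1* overlapping. *Txnrd1*, which encodes the reductase of cytosolic thioredoxin, had 1 UMI in the control, or 8.74 CPM (0.221 to 48.7). Its CKO values ran from 42.8 CPM in replicate 6 through a median of 106 to 325 in replicate 4. *Prdx1* encodes a peroxiredoxin, which uses thioredoxin to reduce peroxides. It was at 52.4 CPM in the control from 6 UMIs, and at 38.9, 143 and 425 CPM as the lowest, median and highest CKO values. Replicate 7 was the CKO library below the control, and replicate 5 was the highest. *Srxn1*, whose product restores overoxidized peroxiredoxins, was at 8.74 CPM in the control from 1 UMI and between 0 and 45.0 CPM in the CKO libraries, 6 of which were above the control.

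*Hmox1*, at chr8:75820241-75827217, encodes heme oxygenase 1, which opens the heme ring and frees its iron. It had 0 UMIs among the 114469 UMIs of control immune nuclei (0 to 32.2 CPM), for which a floor of 3 counts, or 26.2 CPM, is used. Its lowest, median and highest CKO values were 139, 262 and 544 CPM, in replicates 4, 9 and 5. Every CKO library was above the control, and the lowest was at 5.32 times the control floor. That lowest value came from 3 nuclei with an *Hmox1* UMI, so 5.32 is not a lower bound.

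The detoxifying enzymes were sparse. *Ptgr1*, which encodes a reductase of prostaglandins and reactive aldehydes, had 0 UMIs in the control and in 6 of the 11 CKO libraries, and reached 78.5 CPM in replicate 5. *Aox1*, an aldehyde oxidase gene, had 0 UMIs in the control and between 0 and 42.5 CPM in the CKO libraries, with 9 above 0. *Aox1* has close paralogs, and counts per gene do not show how reads shared among them were placed. *Nqo1*, a quinone reductase gene, had 0 UMIs in the control and at most 14.3 CPM in a CKO library, with 4 of 11 above 0.

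**Figure D1:**
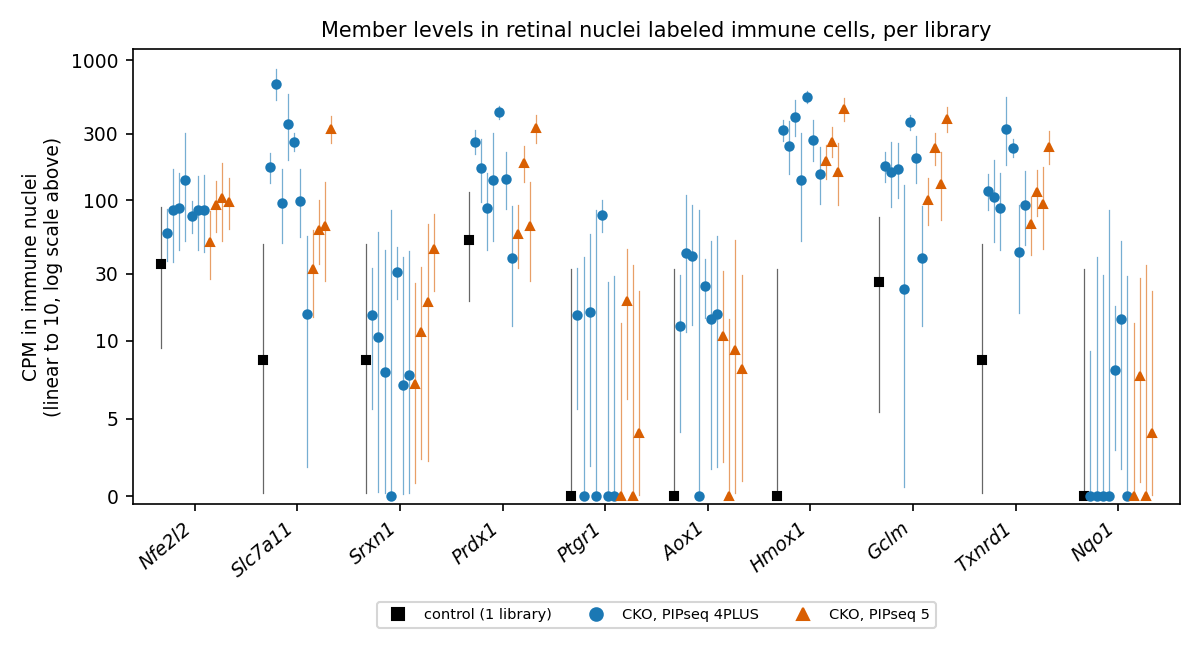
CPM of each member in retinal nuclei labeled immune cells, 1 point per library with its 95% counting interval (black squares, control; blue circles, CKO with PIPseq 4PLUS; orange triangles, CKO with PIPseq 5), on an axis that is linear to 10 and logarithmic above. The control point lies below all 11 CKO points for *Nfe2l2*, *Slc7a11*, *Hmox1* and *Txnrd1*.

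Counted together, 8 members had at least 50 UMIs in immune nuclei, and for 4 of them the control was below every CKO library. The same was true of 7.76% of the 8265 genes with at least 50 UMIs, and since this contrast chose the members, nothing is read from their count. Without CKO replicates 4 and 5 the count was 5 of 6, with *Gclm* added, where 1107 of 6802 genes did so. Within batch 1, which holds the control and 3 CKO libraries, it was 5 of 5, and 1029 of 3274 genes. *Nfe2l2* was not among the genes with enough UMIs there, though its control value was below the 3 CKO libraries, at 58.4 to 88.1 CPM. *Nfe2l2* was not among the genes counted in nuclei with at least 1000 UMIs, nor *Txnrd1* in nuclei with a *Ptprc* UMI. Among the 50 other genes of the pathway that were listed by role, 35 had at least 50 UMIs. The control was below every CKO library for 9 of these, namely *Gclc*, *Gsr*, *Abcc1*, *Sod2*, *G6pdx*, *Idh1*, *Blvrb*, *Ftl1* and *Fth1*. They include the catalytic subunit of glutamate-cysteine ligase, glutathione reductase, biliverdin reductase B and both ferritin chains. For 1 gene, *Ugdh*, the control was above every CKO library.

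Other properties of the immune nuclei differed between the genotypes too. The summed level of 6 macrophage markers, led by *Adgre1*, was 69.9 CPM in the control and ran from 109 through 457 to 1952 CPM in the CKO libraries. Another list of immune markers went the other way, with the CKO median at 0.588 times the control. Hemoglobin genes were at 8.74 CPM in the control and at 18.9, 223 and 6902 CPM. Nuclei also differed in depth, the medians being 2892 UMIs for control and 1773 for CKO nuclei. The part of these differences in the levels of the members was not tested.

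Shares of immune nuclei with a UMI are given for *Hmox1* and *Slc7a11*, which before thinning were above the control in 11 of 11 CKO libraries. For *Txnrd1* it was also 11, for *Nfe2l2* and *Gclm* 9, and for *Prdx1* and *Srxn1* 6. *Prdx1* after thinning was at 7.14% in the control and at a mean of 6.54% in the CKO libraries. *Hmox1* was detected in 24.9% ± 10.9 (SD, n = 11 libraries) of CKO immune nuclei and in 0 of 29 control nuclei, which allows a share of nuclei with a UMI of up to 10.3% by 3 counts, or 11.9% by Clopper-Pearson. After thinning each nucleus to 500 UMIs, the shares were 10.4% and 0%. CKO replicates 4 and 10 were then at 0%, like the control. As background, 0.375% of CKO rods and 0 of the control rods held an *Hmox1* UMI, at median depths of 1104 and 961 UMIs. *Slc7a11* was detected in 13.3% ± 5.67 (SD, n = 11) of CKO immune nuclei, from 5.26% in replicate 7 to 21.9% in replicate 11, and in 1 of 29 control nuclei, or 3.45% (0.0873 to 17.8). Thinned to 500 UMIs, the CKO mean was 5.54% and the control was at 3.57%, so the genotypes lay closer together at that depth. CKO replicates 2, 6, 7, 8 and 9 were then below the control, at 2.86% to 3.33%. In rods 0.262% of CKO and 0.393% of control nuclei held a UMI of *Slc7a11*.

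The UMIs of some members were concentrated in few nuclei. In CKO immune nuclei, the 10 nuclei with the most *Slc7a11* UMIs held 46.9% of its 480 UMIs, and the 10 with the most *Ptgr1* UMIs held 66.7% of its 72. For *Hmox1* the corresponding share was 16.6% of 911 UMIs, and for *Nfe2l2* 15.4% of 201. *Hmox1* and *Nfe2l2* were thus spread over more nuclei. The nucleus with the most *Ptgr1* UMIs, 20 of its 10185, came from CKO replicate 5 and also held the most *Prdx1* UMIs, 40.

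Members were detected together in single nuclei. At least 4 members were detected in 105 of 691 CKO immune nuclei, or 15.2%, and in 0 of 29 control nuclei. The share per CKO library ran from 1.54% in replicate 4 to 26.5% in replicate 8, and replicate 5 contributed 50 of the 105 nuclei. These nuclei were deeper than the rest, with a median of 5055 UMIs. At least 1 member was detected in 401 CKO and 11 control nuclei.

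The CKO immune nuclei were divided by detection of *Slc7a11*, into 91 nuclei with a UMI and 600 without. Median depths were 3872 and 1592 UMIs, so levels as CPM and shares after thinning to 500 UMIs are given beside the plain shares. For the thinned shares the nuclei were divided anew by the thinned *Slc7a11* counts, into 35 with and 569 without, so nuclei that lost their *Slc7a11* UMIs count as without. Because joint detection was among the values on which the members were selected, these numbers are descriptions.

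*Gclm* was detected in 71.4% (61.0 to 80.4) of nuclei with *Slc7a11* and in 19.7% (16.6 to 23.1) of the others. Its level was 617 against 115 CPM, a ratio of 5.35 (4.52 to 6.34). It was higher in nuclei with *Slc7a11* in 10 of 11 libraries, as was *Prdx1*, while *Hmox1* was in 9 and *Txnrd1* in 8. After thinning the shares were 54.3% and 7.21%. *Prdx1* was closely similar, at 70.3% against 19.7%, with a CPM ratio of 5.02 (4.26 to 5.92) and thinned shares of 37.1% and 7.38%. *Txnrd1* was at 65.9% against 17.7%, with a ratio of 3.64 (2.97 to 4.46) and thinned shares of 31.4% and 6.68%. *Hmox1* was at 76.9% against 18.7%, with a ratio of 3.82 (3.35 to 4.36) and thinned shares of 48.6% and 9.84%. For these 4 genes the order was kept at matched depth.

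*Ptgr1* was detected in 19.8% (12.2 to 29.5) of nuclei with *Slc7a11* and in 2.33% (1.28 to 3.88) of those without. The CPM ratio was 11.9 (6.67 to 22.7), and the thinned shares were 11.4% and 0.703%. Much of this rested on CKO replicate 5. Without it the shares were 9.26% and 1.47%, and the CPM ratio was 4.46. *Srxn1* was at 58.4 against 7.75 CPM, a ratio of 7.54 (4.03 to 14.8), but at 0% against 0.527% of nuclei after thinning. *Aox1* was at 42.2 against 8.27 CPM, a ratio of 5.10 (2.64 to 10.2), with thinned shares of 5.71% and 0.527%. *Nqo1* had 9 UMIs in nuclei with *Slc7a11* and 2 in those without, a CPM ratio of 14.1 (2.93 to 134). By library, these genes were higher in nuclei with *Slc7a11* as follows, *Ptgr1* in 5 of 11, *Srxn1* in 6, *Aox1* in 7 and *Nqo1* in 4.

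*Nfe2l2* had a ratio near 1. It was detected in 35.2% (25.4 to 45.9) of nuclei with *Slc7a11* and in 20.0% (16.9 to 23.4) of those without, but its level was 73.0 against 80.6 CPM, a ratio of 0.906 (0.635 to 1.27). It was higher in nuclei with *Slc7a11* in 5 of 11 libraries. After thinning its shares were 2.86% and 6.85%. These intervals cover counting error over pooled nuclei, and joint detection was among the values that chose the members. No difference between *Nfe2l2* and the other members is therefore read from them.

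**Figure D2:**
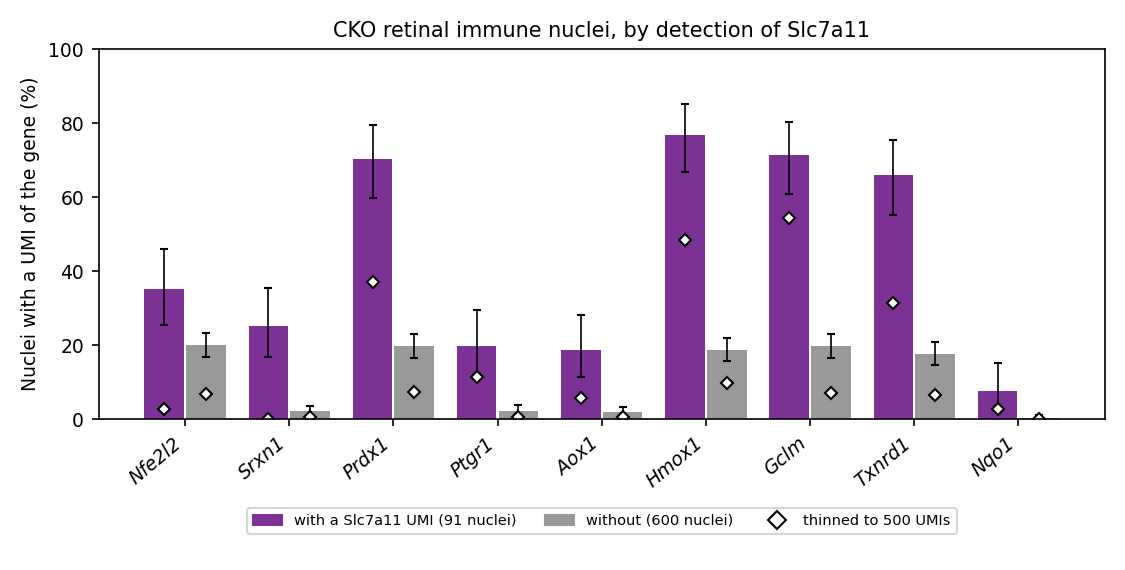
Share of CKO retinal immune nuclei with a UMI of each member, for 91 nuclei with a *Slc7a11* UMI (purple bars) and 600 without (gray bars), with 95% Clopper-Pearson intervals; diamonds give the share after thinning to 500 UMIs, with nuclei divided anew by their thinned counts. *Gclm*, *Prdx1*, *Hmox1* and *Txnrd1* are between 65.9% and 76.9% in nuclei with *Slc7a11*, and *Nfe2l2* is at 35.2%.

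Dividing the same nuclei by *Hmox1* gave a like picture. There were 182 nuclei with an *Hmox1* UMI and 509 without. *Slc7a11* was at 368 against 34.2 CPM, a ratio of 10.8 (7.96 to 14.9), and higher in nuclei with *Hmox1* in 10 of 11 libraries. *Gclm* had a ratio of 6.66 (5.32 to 8.43) and *Prdx1* one of 5.61 (4.55 to 6.97), each higher in 11 of 11 libraries. For *Nfe2l2* the ratio was 0.757 (0.563 to 1.01).

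Pairs of members were counted against the product of their separate shares, which takes no account of depth. *Prdx1* and *Gclm* were detected together in 120 CKO immune nuclei, where the product of shares gives 48.2. After thinning to 500 UMIs the counts were 23 and 5.46. *Slc7a11* and *Hmox1* were detected together in 70 nuclei against 24.0, and in 17 against 4.23 after thinning. The pair *Nfe2l2* and *Hmox1* was detected in 57 nuclei against 40.0, and in 2 against 4.83 after thinning. Of all 45 pairs, some others had 0 nuclei after thinning. The pair *Slc7a11* and *Srxn1* went from 23 nuclei against 4.74 to 0 against 0.174.

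Of the pathway genes outside the 10 members, 20 had at least 50 UMIs in nuclei with *Slc7a11*. Their CPM was at least 2-fold higher in nuclei with *Slc7a11* than in those without for 11 of them, and for 3.15% of all 3084 genes kept. This minimum keeps genes that are high in these nuclei, so the count was repeated with at least 50 UMIs over both sets of nuclei, an alternative chosen after seeing the data. Then 13 of 35 pathway genes and 207 of 8087 genes were at least 2-fold higher, and 0 and 422 at most 0.5-fold. The median log2 ratio was 0.75 for these 35 genes and 0.03 for all genes, and 28 of the 35 had a plain ratio above 1. *Prdx6*, a peroxiredoxin gene, had a ratio of 6.39 (4.03 to 10.3), which was 3.11 without CKO replicate 5, and *Gclc*, the catalytic partner of *Gclm*, one of 5.02 (4.25 to 5.94). *Esd* (3.88), *Cat* (3.38), *Sqstm1* (3.3), *Blvrb* (2.60), *Gsr* (2.56), *Me1* (2.52), *Fth1* (2.47), *Ftl1* (2.17) and *Slc40a1* (2.09) were the others of the 11. They include catalase, the cargo adaptor p62, malic enzyme, which makes NADPH, the ferritin chains and the iron exporter ferroportin. *Slc3a2*, whose product forms the cystine transporter with that of *Slc7a11*, had a ratio of 1.05 (0.766 to 1.43), and *Keap1* one of 0.691 (0.324 to 1.35). Without CKO replicate 5 only 9 pathway genes had enough UMIs, and 4 of them, *Gclc*, *Me1*, *Blvrb* and *Slc40a1*, were at least 2-fold higher. The same was true of 2.31% of 2079 genes.

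The 10 genes with the highest ratio, over 11 libraries and among genes with at least 50 UMIs in nuclei with *Slc7a11*, were *Mmp12*, *Ptgr1*, *Slc22a4*, *Gm50020*, *Prdx6*, *Cd247*, *Gclm*, *Gclc*, *Prdx1* and *Rnf128*. *Mmp12* had 57 UMIs in nuclei with *Slc7a11* and 3 in those without, a ratio of 59.7 (19.4 to 298), which was 95.4 without CKO replicate 5, and was higher in 2 libraries. *Slc22a4* had a ratio of 7.85 (4.71 to 13.5) and was higher in 9 libraries. Of the 10 genes, 3 were members and 2 were other genes of the pathway list. Among all 3084 genes kept, 5 were members and 20 were other genes of that list. Joint detection chose the members, and the minimum keeps genes that are high in these nuclei, so nothing is read from this count.

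Marker genes also differed between nuclei with and without *Slc7a11*. The 6 macrophage markers summed to 263 against 553 CPM, with *Cd163* at 0 in nuclei with *Slc7a11*. The 4 monocyte markers, led by *Ccr2*, were at 16.2 against 220 CPM, and *Ly6c2* was at 0. Dendritic cell markers were at 42.2 against 120 CPM and neutrophil markers at 79.5 against 124 CPM. T cell markers were at 1.62 against 11.9 CPM, B cell markers at 1.62 against 34.6 CPM and *Ptprc* at 287 against 653 CPM. The 5 erythroid markers, led by *Hbb-bs*, were at 182 against 627 CPM, and the 5 rod markers, led by *Sag*, at 4602 against 5215 CPM. Of non-immune types, the highest ratios rested on few UMIs. Brain astrocyte markers had 13 UMIs in nuclei with *Slc7a11* and 5 in the others, a ratio of 8.17 (2.73 to 29.3). Pericyte markers had 9 and 3 UMIs, a ratio of 9.42 (2.35 to 54.1). Müller glia markers, with 125 and 349 UMIs, had a ratio of 1.125 (0.91 to 1.38). Retinal astrocyte markers, with 7 and 15 UMIs, were at 1.47 (0.506 to 3.82), and bipolar markers, with 150 and 775, at 0.608 (0.507 to 0.725). As CPM, the members but *Nfe2l2* were thus higher in the nuclei with lower levels of every list of immune markers used and of *Ptprc*. The part of marker content and of depth in these ratios was not tested.

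Across the 11 labeled retinal cell types, immune nuclei had the highest CKO median for 7 of the 10 members. Levels are compared between types within a gene and not between genes. The order is given by CKO medians, and neighbors in it are called apart where their ranges over CKO libraries, given in parentheses there, do not overlap. *Nfe2l2* was at 85.7 CPM in immune nuclei, 41.8 in astrocytes, 27.1 in Müller glia and 23.4 in rods, and lowest in rod bipolar cells at 6.03. *Slc7a11* was at 99.9 CPM in immune nuclei and 49.0 (34.9 to 63.8) in Müller glia, and Müller glia were apart from GABAergic amacrine cells at 10.0 (5.40 to 16.3). *Gclm* was at 168 CPM in immune nuclei, 68.0 in astrocytes, 52.3 in Müller glia and 9.87 in rods, where it was lowest. Each of the other neighbors in these 3 orders overlapped.

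*Srxn1* was at 10.6 CPM in immune nuclei, 5.56 in retinal ganglion cells and 4.71 in Müller glia. *Prdx1* was at 143 CPM in immune nuclei, 84.1 in astrocytes, 52.7 in Müller glia and 31.8 in horizontal cells. *Txnrd1* was at 106 CPM in immune nuclei, 41.8 in astrocytes, 40.5 in Müller glia and 35.7 in ganglion cells. In these 3 orders every pair of neighbors overlapped. *Hmox1* was at 262 CPM (139 to 544) in immune nuclei and apart from the next type, astrocytes, at 7.80 (0 to 67.3). *Ptgr1* was highest in Müller glia, at 2.45 CPM (1.07 to 4.29), apart from GABAergic amacrine cells at 0.331 (0 to 1.06), and its median was 0 in immune nuclei. *Aox1* was at 46.6 CPM in astrocytes, 26.2 in Müller glia and 12.7 in immune nuclei, and *Nqo1* was at 1.80 in Müller glia and 0 in immune nuclei, each overlapping its neighbors.

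The share of each gene's UMIs by cell type shows where its transcripts were. In the CKO libraries, 911 of 1816 *Hmox1* UMIs, or 50.2%, were in immune nuclei, which made up 1.04% of nuclei and 1.13% of UMIs. For *Ptgr1* it was 42.1% of 171 UMIs, and 17.9% of 78 without CKO replicate 5, and for *Slc7a11* 22.3% of 2150, with a further 26.8% in Müller glia. *Aox1* was mostly a Müller glia transcript, with 60.0% of 553 UMIs there.

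Over all retinal nuclei, *Slc7a11*, *Hmox1* and *Txnrd1* were lower in the control than in each CKO library, 3 of the 10 members against 3.28% of 21693 genes. *Slc7a11* was at 6.03 CPM (5.20 to 6.96) in the control and at 7.71, 9.53 and 332 CPM as the lowest, median and highest CKO values. *Hmox1* was at 0.194 CPM (0.0711 to 0.421), from 6 UMIs, and at 3.08, 7.37 and 66.3 CPM. *Txnrd1* was at 18.4 CPM (16.9 to 20.0) and at 18.6, 22.5 and 155 CPM. In all 3 cases the highest library was CKO replicate 4, in which most nuclei were labeled immune. The lowest *Txnrd1* library lay within the control's counting interval.

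Müller glia are the radial glia of the retina. In nuclei with this label, 5 endothelial markers summed to 932 CPM in the control and to a CKO median of 835 CPM, beside 30.8 and 29.2 CPM in rods. The part of EC transcripts in the values of this label was not tested. Of 8 members with at least 50 UMIs there, 0 had a control value outside the range of the CKO libraries, where 14.8% of 12789 genes did. *Slc7a11* was at 35.7 CPM in the control (26.9 to 46.6) and at 34.9, 49.0 and 63.8 CPM as the lowest, median and highest of 10 CKO libraries. Its control value was above that of CKO replicate 8 only, and with PIPseq 4PLUS libraries alone it was below the range. *Gclm* was at 47.7 CPM in the control and at 26.1, 52.3 and 79.7 CPM. *Ptgr1*, with 33 UMIs in all, had 1 UMI or 0.662 CPM (0.0168 to 3.69) in the control, below all 10 CKO libraries at 1.07 to 4.29 CPM. *Hmox1* had 1 UMI in the control, or 0.662 CPM (0.0168 to 3.69), and was at 0, 7.70 and 26.4 CPM in the CKO libraries. Its 0 was in replicate 7 and its highest value in replicate 5, and 9 of 10 CKO libraries were above the control.

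In rods, 0 of 7 members with at least 50 UMIs had a control value outside the CKO range, where 9.11% of 14045 genes did. *Nfe2l2* was at 21.3 CPM in the control and at 13.7, 23.4 and 33.9 CPM in 10 CKO libraries. *Hmox1* had 0 UMIs in the control, with a floor of 0.349 CPM, and was at 0, 2.05 and 5.88 CPM. CKO replicate 7 was again the library at 0, and the other 9 were above the floor.

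In amacrine cells and cone bipolar cells the control value of *Hmox1* was below every CKO library. In the other neurons and the astrocytes it was below most of them but not all. Ganglion cells had 10 of 11 CKO libraries above the control, and rods and horizontal cells 9 of 10. Rod bipolar cells had 7 of 10 above it, and cones and astrocytes 6 of 10. In GABAergic amacrine cells, 3 of 8 members were lower in the control than in each of 10 CKO libraries, against 5.71% of 15671 genes. These were *Hmox1*, with 1 control UMI or 0.18 CPM (0.00456 to 1.00) and CKO values of 0.929, 3.02 and 6.89, *Prdx1* and *Txnrd1*. *Prdx1* was at 8.83 CPM (6.54 to 11.7) in the control and at 8.92, 13.1 and 20.3 CPM, and *Txnrd1* at 18.0 CPM (14.7 to 21.9) and at 18.7, 22.0 and 30.0 CPM. For all 3 genes the lowest CKO library lay within the control's counting interval. Of 7 members in cone bipolar cells 1 was below the range, against 7.02% of 15235 genes, of 7 in glycinergic amacrine cells 2 (8.63% of 14779), and of 4 in horizontal cells 1 (11.1% of 10626). In cone bipolar cells *Hmox1* was at 0.378 CPM (0.0458 to 1.37) from 2 UMIs in the control and at 1.80, 4.03 and 6.17 CPM. In glycinergic amacrine cells it was at 0.283 CPM (0.00716 to 1.58) from 1 UMI and at 0.472, 2.33 and 5.80 CPM, the lowest within the control's interval. *Nfe2l2* in those cells was at 3.39 CPM (1.75 to 5.93) from 12 UMIs and at 5.67, 9.99 and 15.4 CPM. *Prdx1* in horizontal cells was at 18.7 CPM (10.2 to 31.4) and at 24.7, 31.8 and 57.2 CPM. In both cases the lowest CKO library again lay within the control's interval.

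*Hmox1* was therefore summed over all retinal nuclei not labeled immune. It was at 0.194 CPM (0.0713 to 0.423) in the control, from 6 UMIs. In the CKO libraries it was at 0 in replicate 4, and from 1.72 CPM in replicate 7 to 5.16 in replicate 9 in the others, with a median of 3.49 over all 11. The median was 18.0 times the control value, and 15.8 times with the 3 CKO libraries of batch 1. All CKO libraries but replicate 4, which had few nuclei, were above the control's interval.

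Transcripts of red blood cells also differed between genotypes in these nuclei. The 4 hemoglobin genes, led by *Hbb-bs*, summed to 3.3 CPM (2.69 to 4.01) in the control and to 56.6, 149 and 359 CPM as the lowest, median and highest CKO values. *Alas2*, the heme synthesis gene of erythroid cells, was at 2.53 CPM in the control and at 0, 3.66 and 4.72 CPM, so it overlapped between genotypes. The macrophage gene *Lyz2* had 1 UMI in the control, or 0.0324 CPM (0.00082 to 0.181), and was at 0, 1.37 and 3.62 CPM, while the 6 macrophage markers overlapped, at 4.50 CPM and at 4.17, 6.98 and 823 CPM. *Ptprc* was at 0.939 CPM and at 0, 1.25 and 2.53 CPM, and *Hmox2*, which encodes the constitutive heme oxygenase, at 18.6 CPM and at 0, 19.8 and 24.2 CPM. The part of RNA from red blood cells or immune cells in the *Hmox1* counts of other nuclei was not tested.

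**Figure D3:**
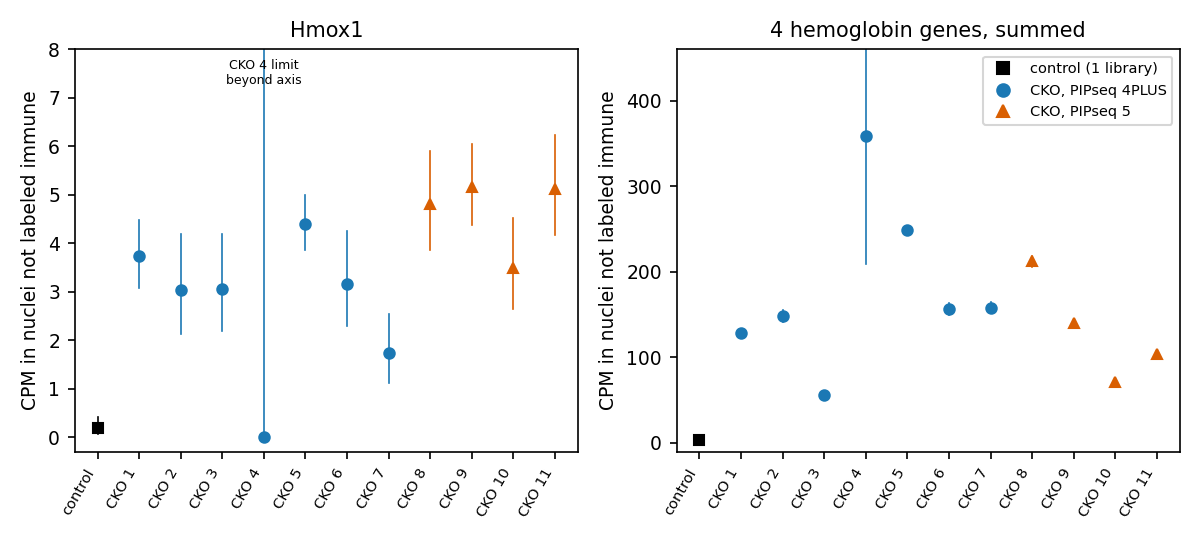
*Hmox1* (left) and 4 hemoglobin genes summed (right) as CPM in retinal nuclei not labeled immune, 1 point per library with its 95% counting interval (black squares, control; blue circles, CKO with PIPseq 4PLUS; orange triangles, CKO with PIPseq 5). For *Hmox1* the control is at 0.194 CPM, CKO replicate 4 is at 0 with a limit beyond the axis, and the other CKO libraries are between 1.72 and 5.16.

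The capture kit was not used in choosing the members, so its contrast could be tested among CKO libraries. All PIPseq 5 libraries were in batch 3 and the fit had no batch term, so kit and batch were partly confounded. Within batch 3 only replicates 6 and 7 were made with PIPseq 4PLUS. Depth differed too, with medians of 2717 to 4041 UMIs per nucleus with PIPseq 5. In the fitted CKO libraries made with PIPseq 4PLUS they were 1183 to 2029. The part of depth was not tested. In rods, *Gclm* was at 5.35 CPM in the control and at 0, 7.12 and 10.4 CPM as the lowest, median and highest of 6 CKO libraries made with PIPseq 4PLUS. In the 4 made with PIPseq 5 it was at 21.3, 34.9 and 39.3 CPM, and the kits did not overlap. *Gclm* was the member called, of 7 tested, where 13.7% of 11774 genes were called by edgeR. Its log2 difference was 2.05 (SE 0.56, adjusted p = 0.0367), and 5 members and 31.6% of all genes had an unadjusted p under 0.05. Of the 5, *Nfe2l2* was lower with PIPseq 5, at -0.48. DESeq2 called 2 members, *Gclm* and *Hmox1*, and 2605 of 11774 genes. Without CKO replicates 4 and 5 edgeR called 0 members and 1095 of 11458 genes. There 4 members and 28.8% of genes had an unadjusted p under 0.05, and *Gclm* was at 2.05 (SE 0.59, adjusted p = 0.0575). Within batch 3, which holds both kits, edgeR called 5 of 7, namely *Srxn1*, *Slc7a11*, *Gclm*, *Prdx1* and *Hmox1*, all higher with PIPseq 5, and 4726 of 12256 genes. *Prdx1* in rods was at 0.352, 3.12 and 12.2 CPM with PIPseq 4PLUS and at 12.9, 16.4 and 17.8 with PIPseq 5.

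In Müller glia, 0 of 7 members were called between the kits by edgeR, 0 had an unadjusted p under 0.05 and DESeq2 called 0. Of 10866 genes there, edgeR called 1.74%, and 18.0% had an unadjusted p under 0.05. The median log2 difference of the members was -0.34 there and 1.53 in rods, beside 0.00 and 0.04 for all genes tested. Without CKO replicates 4 and 5 it was -0.06 in Müller glia, and within batch 3 it was -0.07 there and 2.77 in rods. Within batch 3, 2 members in Müller glia had an unadjusted p under 0.05, *Slc7a11* (-0.59) and *Gclm* (0.75, SE 0.23, adjusted p = 0.0741), as did 21.9% of genes. *Hmox1* was at 1.37 (SE 0.85) there in place of -0.55 (SE 0.71). Whether the kit effect on *Gclm* differed between rods and Müller glia was not tested.

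The other genes of the pathway were tested between genotypes with libraries as replicates and the kit as a covariate. With 1 control library, its spread was assumed to be like that of the CKO libraries, and p-values measure the spread between libraries. In Müller glia, edgeR called 0 of 42 pathway genes, and DESeq2 called 0. Over all 12992 genes edgeR called 1, or 0.0077%. The 3 pathway genes with the lowest unadjusted p, none of them called, were *Fth1*, *Gss* and *Txn1*. *Fth1*, the heavy ferritin chain, had a log2 difference of 1.5 (SE 0.55) and *Gss*, glutathione synthetase, one of -0.92 (SE 0.31). The fitted value of *Txn1*, thioredoxin, rested on few UMIs. The 5 genes of heme and iron handling tested all had higher fitted values in the CKO libraries, with a median log2 difference of 0.76, though none was called and they ran down to 0.04 (SE 0.39) for *Hmox2*. Of 9 glutathione genes in Müller glia 6 were higher, with a median of 0.33, of 7 regulators 4 (0.25), and of 6 detoxifying genes 4 (0.10). Of 9 thioredoxin and peroxide genes 3 were higher (-0.03), and of 6 NADPH genes 3 (-0.16). The median over all 42 was 0.11, beside 0.03 for all genes.

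In rods, edgeR called 0 of 41 pathway genes, and DESeq2 called 1. Among all 14146 genes edgeR called 0%. The gene called by DESeq2 was *Abcc1*, which encodes an exporter of glutathione conjugates, with a log2 difference of 0.69 (SE 0.19, adjusted p = 0.0219). In edgeR it was at 0.67 (SE 0.20, adjusted p = 1.0). Over all 41 genes the median log2 difference was 0.05, and 21 were positive. The 4 genes with the lowest unadjusted p in edgeR went both ways. *Ftl1* and *Abcc1* were higher in the CKO libraries, and *Prdx3* (-2.17, SE 0.82) and *Prdx6* (-3.4, SE 1.41) were lower. Of the 6 heme and iron genes tested in rods 3 were higher, with a median of 0.01. Among them *Ftl1* had a log2 difference of 7.32 (SE 2.16, adjusted p = 1.0). Whether the group differed between the cell types was not tested.

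In the brain, each genotype had 1 library, so ratios are given without a test. *Nfe2l2*, *Prdx1*, *Gclm* and *Txnrd1* were well detected in ECs, the cells in which *Tgfbr1* was deleted. There were 2475 control and 2944 CKO ECs. *Nfe2l2* was at 146 CPM in the control and 112 CPM in the CKO library, a ratio of 0.767 (0.694 to 0.846). *Gclm* was at 201 and 206 CPM, a ratio of 1.02 (0.945 to 1.11), and *Prdx1* at 396 and 361 CPM, a ratio of 0.914 (0.863 to 0.967). *Txnrd1* was the member highest above 1 among those with at least 50 UMIs, at 45.9 and 81.2 CPM, a ratio of 1.77 (1.53 to 2.06). *Hmox1* was at 15.7 and 21.9 CPM, a ratio of 1.40 (1.07 to 1.83). The *Hmox1* interval includes the ratio of the median gene, at a log2 value of 0.14.

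*Slc7a11* was lower in CKO ECs, at 25.2 and 13.1 CPM, a ratio of 0.522 (0.397 to 0.683). *Aox1* was at 11.7 and 4.38 CPM, a ratio of 0.374 (0.235 to 0.582), and *Ptgr1* at 5.52 and 2.63 CPM, a ratio of 0.476 (0.252 to 0.875). *Nqo1* was at 4.14 and 5.11 CPM, a ratio of 1.24 (0.714 to 2.17). *Srxn1* had 7 and 26 UMIs, a ratio of 3.15 (1.33 to 8.58). Of 9 members with at least 50 UMIs, 0 had a ratio of 2 or more and 2, *Aox1* and *Ptgr1*, a ratio of at most 0.5, where 9.45% and 3.9% of 11351 genes did. Past 2-fold either way were 2 of 9 members and 13.4% of genes. The count of 2 was 0 of 6 with at least 200 UMIs, 1, *Aox1*, in nuclei with at least 1000 UMIs, and 3 with TMM scaling, by which *Slc7a11* was added. For all genes it was 611 of 7924, 1410 of 11214 and 1471 of 11351.

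Pathway genes outside the members were also compared in ECs. Of 48 with at least 50 UMIs, 3 were at least 2-fold higher in the CKO library and 1 was at most 0.5-fold, with a median log2 ratio of -0.13. *Abcc1* was at 1.72 and 10.2 CPM, a ratio of 5.93 (3.04 to 12.9). *Gclc* was at 9.83 and 24.1 CPM, a ratio of 2.45 (1.80 to 3.37), and *Gss* at 2.41 and 5.98 CPM, a ratio of 2.48 (1.32 to 4.93). The glutathione list went both ways. *Gsr* was at a ratio of 1.66, *Mgst1* at 1.84, *Gpx4* at 0.979, *Gstp1* at 0.921, *Abcc4* at 0.791, *Slc3a2* at 0.630, *Gpx1* at 0.620, *Gstm1* at 0.577 and *Gsta4* at 0.501, all named after their values were seen. *Osgin1* was at 7.07 and 2.04 CPM, a ratio of 0.289 (0.146 to 0.541). Markers of other cells differed between the EC sums as well. The 5 erythroid markers, led by *Hbb-bs*, were at 18650 CPM in control ECs and 9060 in CKO ECs, and the choroid plexus gene *Ttr* at 1113 and 472 CPM. Pericyte markers were at 6761 and 5820 CPM, led by *Rgs5*, and macrophage markers at 134 and 74.1 CPM, led by *Mrc1*. The part of these transcripts in the ratios of the members was not tested.

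*Slc7a11* was lower in the CKO library in nuclei labeled glia and higher in astrocytes. In 1227 control and 419 CKO nuclei labeled glia it was at 1042 and 299 CPM, a ratio of 0.286 (0.241 to 0.339). It was detected in 39.9% (37.1 to 42.7) and 18.4% (14.8 to 22.4) of these nuclei, at median depths of 879 and 582 UMIs. In 942 and 644 astrocytes it was at 333 and 552 CPM, a ratio of 1.66 (1.42 to 1.93), and was detected in 27.2% and 28.9% of nuclei at median depths of 1150.5 and 579 UMIs. As background, 0.919% and 0.143% of nuclei of the cluster labeled Glut_1 held a UMI of it, at 3603 and 1653 UMIs. In glia the ratio was 0.385 in nuclei with at least 1000 UMIs and 0.216 without the 10 nuclei of each library with the most *Slc7a11* UMIs.

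Of 8 members with at least 50 UMIs in nuclei labeled glia, *Slc7a11* alone was past 2-fold, in the direction of lower CKO values. Among 6480 genes there, 6.08% had a ratio of at least 2, 8.6% of at most 0.5, and 14.7% either. *Nfe2l2* was at 174 and 315 CPM, a ratio of 1.81 (1.48 to 2.20). Of 27 pathway genes, *Keap1* (2.04), *Gclc* (2.66), *Slc3a2* (2.25), *Tkt* (2.36) and *Taldo1* (2.02) were at least 2-fold higher in the CKO library. *Bach1*, which encodes a repressor of heme oxygenase (0.398), and *Slc40a1* (0.183) were at most 0.5-fold. The label was broad. Fibroblast markers, led by *Col1a2*, were at 3413 and 3762 CPM in these nuclei and astrocyte markers at 850 and 1170 CPM. Macrophage markers, led by *F13a1*, were at 158 and 40.1 CPM and erythroid markers at 1204 and 2776 CPM. Which cells of the label held the *Slc7a11* UMIs, and whether their mix differed between the libraries, was not tested.

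Each member had its own order over the 21 labeled brain cell types. The highest means of both libraries were in nuclei labeled glia for *Nfe2l2* (174 and 315 CPM in control and CKO), *Slc7a11*, *Aox1* (193 and 160) and *Nqo1* (24.8 and 14). For *Nfe2l2*, *Slc7a11* and *Nqo1* the next type overlapped, and for *Aox1* cluster CP_8 at 119 and 115 CPM was apart. *Prdx1* and *Txnrd1* were highest in ECs, and the next types overlapped. *Gclm*, *Srxn1* and *Hmox1* were highest in the cluster labeled Glut_20, at 512 and 624 CPM for *Gclm*, 53.1 and 45.0 for *Srxn1*, and 5.69 and 50.6 for *Hmox1*. The next type was apart for *Gclm* and *Srxn1* and overlapped for *Hmox1*. For *Hmox1* the place of Glut_20 rests on 3 control and 9 CKO UMIs, and in the control library ECs were higher, at 15.7 CPM. Glut_20 was unlike the other clusters labeled Glut, of which Glut_21 came next for *Gclm*, at 10.5 and 18.1 CPM. *Prdx1* was at 328 and 393 CPM in Glut_20 and at 3.50 and 7.25 in Glut_21. Which cells the label Glut_20 covers was not tested, so these values are not read as those of neurons. *Ptgr1* was highest in cluster CP_6, at 41.5 and 41.7 CPM. Over all brain nuclei, *Slc7a11* was at 57.8 and 22.2 CPM, a ratio of 0.385 (0.354 to 0.418), *Aox1* at 21.7 and 10.5 CPM, a ratio of 0.482 (0.425 to 0.547), and *Hmox1* at 2.41 and 5.32 CPM, a ratio of 2.21 (1.73 to 2.82). These were the members past 2-fold, 1 up and 2 down of 10, where 1.48% of 18137 genes were up, 2.9% down and 4.38% either.

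**Figure D4:**
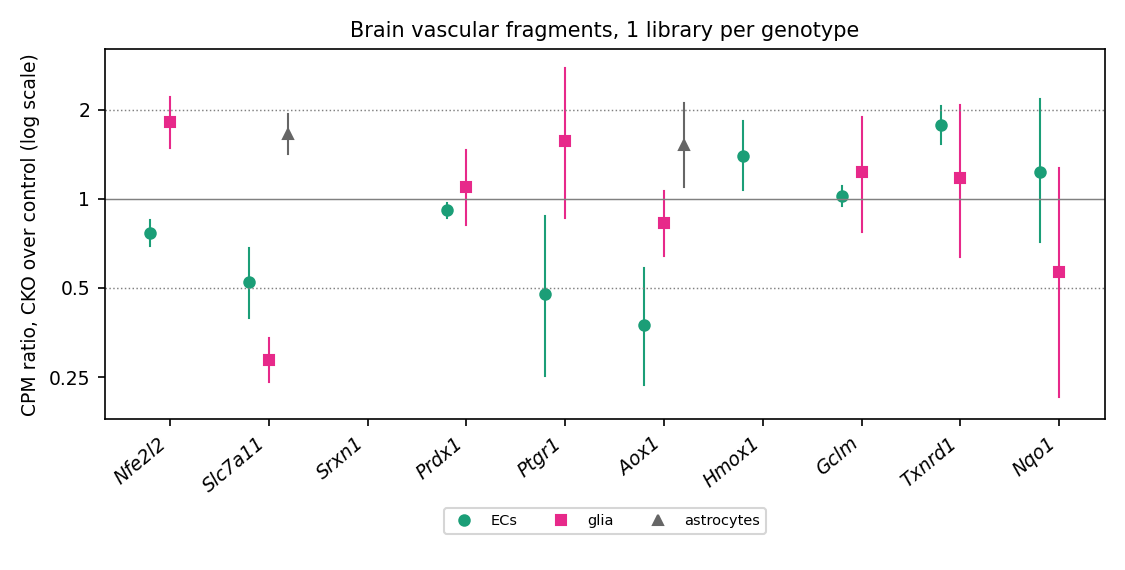
CPM ratio of each member, CKO over control library, on a logarithmic axis in brain ECs (green circles), nuclei labeled glia (pink squares) and astrocytes (gray triangles), for members with at least 50 UMIs, with 95% exact conditional binomial intervals and dotted lines at 0.5 and 2. *Slc7a11* is at 0.522 in ECs, 0.286 in glia and 1.66 in astrocytes.

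The promoters of the members were searched for the core of the antioxidant response element, since these genes were detected together. The letters searched were TGACNNNGC and, for the other strand, GCNNNGTCA, in the 250 bases before to 50 bases after each start, from RefSeq on GRCm38.p6. Of the 10 members 9 matched an entry, and *Hmox1* did not. The core was found in 5, *Nfe2l2*, *Srxn1*, *Prdx1*, *Gclm* and *Txnrd1*, and before the start in 4 of them. Of all 32851 promoters 12.4% held it, 10.2% before the start. Counted by gene, it was in 14% of 27025 genes. Of the other pathway genes 12 of 44 matched held it. *Slc7a11*, *Ptgr1*, *Aox1* and *Nqo1* did not hold these letters in this window. The 4 sites before a start, each within a stretch with 10 bases on either side, were in chr2:75704885-75704913 for a gene on the minus strand, the core 240 to 232 bases before the start of *Nfe2l2*, in chr4:116685456-116685484 on the plus strand, 133 to 125 bases before that of *Prdx1*, in chr3:122245413-122245441 on the plus strand, 134 to 126 bases before that of *Gclm*, and in chr10:82859104-82859132 on the plus strand, 92 to 84 bases before 1 of 3 starts of *Txnrd1*. The stretches are shown 5′ to 3′ along the gene, and capitals mark the core. A match describes letters only.
Nfe2l2: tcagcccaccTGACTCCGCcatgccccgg
Prdx1: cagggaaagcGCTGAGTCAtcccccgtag
Gclm: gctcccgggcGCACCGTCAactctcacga
Txnrd1: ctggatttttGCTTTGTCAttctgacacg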

How the data were processed

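The matrices the authors deposited hold whole UMI counts of genes in nuclei, after PIPseeker, CellBender and removal of doublets with SOLO. The authors also removed mixed nuclei by hand, among them clusters of CKO replicates 4 and 5. Cell types, batches and kits are the authors' labels. The members and lists were chosen with earlier results of these data known. UMIs were summed per cell type and library and divided by the total of that sum. In the retina, libraries with at least 10000 UMIs in a type and genes with at least 50 UMIs were compared by range. In the brain, genes with at least 50 UMIs counted at a ratio of at least 2 or at most 0.5. The genes named are the 10 members, the pathway and marker genes of the lists used and the 10 genes with the highest ratio by *Slc7a11* detection. Others were named after their values were seen. Library sums were tested with edgeR 4.0.16 (quasi-likelihood, TMM, filterByExpr, Benjamini-Hochberg, 0.05), checked on simulated data, and DESeq2 1.42.0 in R 4.3.3. Sums and intervals were made in Python 3.11.15 with pandas 2.3.3, scipy 1.17.1 and numpy 2.4.6, and figures with matplotlib 3.10.9. Alternatives covered the test, filters, libraries, kit, batch, scaling, depth and nuclei. Those for immune ranges, rod kits, *Hmox1* outside immune nuclei, brain glia, pathway genes by *Slc7a11* and CKO replicate 5 were chosen after seeing the data, as was the rod kit test.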

Additional observations from a re-analysis of the deposited data

Results flagged for a closer look

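*Slc7a11* over all nuclei went in opposite directions between the tissues. In the retina each of the 11 CKO libraries was above the control library, and in the brain the CKO library was below the control, at a ratio of 0.385. The difference was not tested, since each brain genotype had 1 library. The sums mix cell types whose shares differed. Outside immune nuclei the median retinal CKO library was at 1.28 times the control, with the lowest, 6.14 CPM, inside the control's interval (5.19 to 6.96), and in brain astrocytes the ratio was 1.66. In rods *Slc7a11* was at 3.02 CPM in the control and at a CKO median of 1.73 CPM, with 1 of 10 CKO libraries above the control.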

How the results depend on the processing

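Of the values under alternatives, 69 stayed the same within their spread or within 1.5 times the count and 31 moved. Some directions turned among values not counted there. In Müller glia the kit difference of *Hmox1* went from -0.55 to 1.37 within batch 3. After thinning, the shares of *Nfe2l2* and *Srxn1* were lower in nuclei with *Slc7a11* than in those without. By DESeq2, 1 rod pathway gene was called in place of 0. For the kit in rods, where edgeR called 1 member, DESeq2 called 2, edgeR without CKO replicates 4 and 5 called 0, and within the batch with both kits 5. In Müller glia, 1 member in place of 0 lay outside the CKO range with PIPseq 4PLUS libraries only, as did 2492 of 11149 genes. In brain ECs, 2 members were past 2-fold, 0 with at least 200 UMIs, 1 in nuclei with at least 1000 UMIs and 4 at 1.5-fold. For all genes it was 1516 of 11351, 611 of 7924, 1410 of 11214 and 3486 of 11351. The *Slc7a11* ratio in glia of 0.286 was 0.385 in nuclei with at least 1000 UMIs and 0.216 without the top 10 nuclei. Thinned to 500 UMIs, the *Slc7a11* share in CKO immune nuclei was 5.54% in place of 13.3%. The *Ptgr1* share in nuclei with *Slc7a11* was 19.8%, 11.4% when thinned, 10.2% without CKO replicates 4 and 5 and 9.26% without replicate 5. Without replicate 5, 4 of 9 pathway genes in place of 11 of 20 were 2-fold higher with *Slc7a11*. Over all genes it was 2.31% in place of 3.15%. Over all genes, the genotype calls in Müller glia were 1 with edgeR, 108 with DESeq2, 4 without a filter and 17 in the control's batch. In rods they were 0, 226, 2 and 1. Kit calls in Müller glia were 189, and 628 with DESeq2, 491 without a filter and 591 in the batch with both kits. In rods they were 1610, and 2605 with DESeq2, 1095 without CKO replicates 4 and 5 and 4726 in that batch. The cause of these shifts was not tested. With 1 control library of 29 immune nuclei, counts of 0 to 6 UMIs set the precision of the control values, and genotype cannot be told apart from what else was particular to that library. No paired analysis was possible because the groups share fewer than 2 replicate numbers.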
